A study of Mus musculus with 12 samples.

Results

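The forkhead genes encode transcription factors that share a winged-helix DNA-binding domain. Of the 20807 autosomal protein-coding genes of GENCODE mouse release M21, 41 carried a forkhead symbol, which is Fox followed by a letter from a to s and a number. A gene was counted as having a peak of the histone acetyltransferase MOF when a deposited peak overlapped its body or lay within 3 kb of any of its annotated start sites. The family was chosen by its MOF peaks in both lists, so the counts and strengths of peaks at these genes are given as a description, with no test. The members were sorted by textbook expression into 28 developmental genes, which are active in particular embryonic lineages or specialised cells, 11 broadly expressed genes (Foxj2, Foxj3, Foxk1, Foxk2, Foxm1, Foxn2, Foxn3, Foxo1, Foxo3, Foxp1 and Foxp4) and 2 genes placed in neither class (Foxo6 and Foxr1). The 3 forkhead genes on chromosome X (Foxp3, Foxo4 and Foxr2) are not members.

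The data were MOF ChIP-seq peaks from visceral white adipose tissue of C57BL/6 mice, 8 weeks old and kept on a standard diet. The comparison was between wild-type mice, here Mof+/+, and Mof+/- mice, which carry a single functional copy of the gene for MOF. Per genotype there were 2 MOF ChIP libraries, with 2 of histone H3 and 2 of input DNA, and a single list of MOF peaks. The lists hold no replicate values, so the variation between animals is unknown, and in whole tissue fewer cells carrying MOF at a site and less MOF per cell cannot be told apart.

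Forkhead factors open or read chromatin at the enhancers of their lineages. FOXA proteins act as pioneer factors in endoderm, FOXC and FOXF proteins pattern mesoderm, and FOXD3 acts in the neural crest. FOXO proteins are held in the cytoplasm by insulin signalling through AKT and enter the nucleus in fasting. In adipose tissue FOXO1 restrains adipocyte differentiation, and FOXC2 and FOXA2 have been tied to adipocyte metabolism. MOF acetylates lysine 16 of histone H4, a mark of open chromatin.

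In Mof+/+ tissue 28 of the 41 forkhead genes had a MOF peak (68.3%, 95% Wilson interval 53.0 to 80.4%), against 46.4% of all autosomal protein-coding genes. In Mof+/- tissue 9 of the 41 did (22%, 12 to 36.7%), against 1.97% of all genes. All 9 were developmental genes, namely Foxa1, Foxb1, Foxb2, Foxc1, Foxd1, Foxd3, Foxd4, Foxi3 and Foxl2, and each of them also had a Mof+/+ peak. In the broad class all 11 broad members had a Mof+/+ peak (100%, 74.1 to 100%) and 0 of 11 had a Mof+/- peak, which allows a share of up to 25.9%. Of the 28 developmental members, 17 had a Mof+/+ peak (60.7%, 42.4 to 76.4%) and 9 had a Mof+/- peak (32.1%, 17.9 to 50.7%). Foxo6 and Foxr1 had 0 peaks in either list. Intervals cover counting error only, and the genes are items of 1 list and not replicates.

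**Figure D1:**
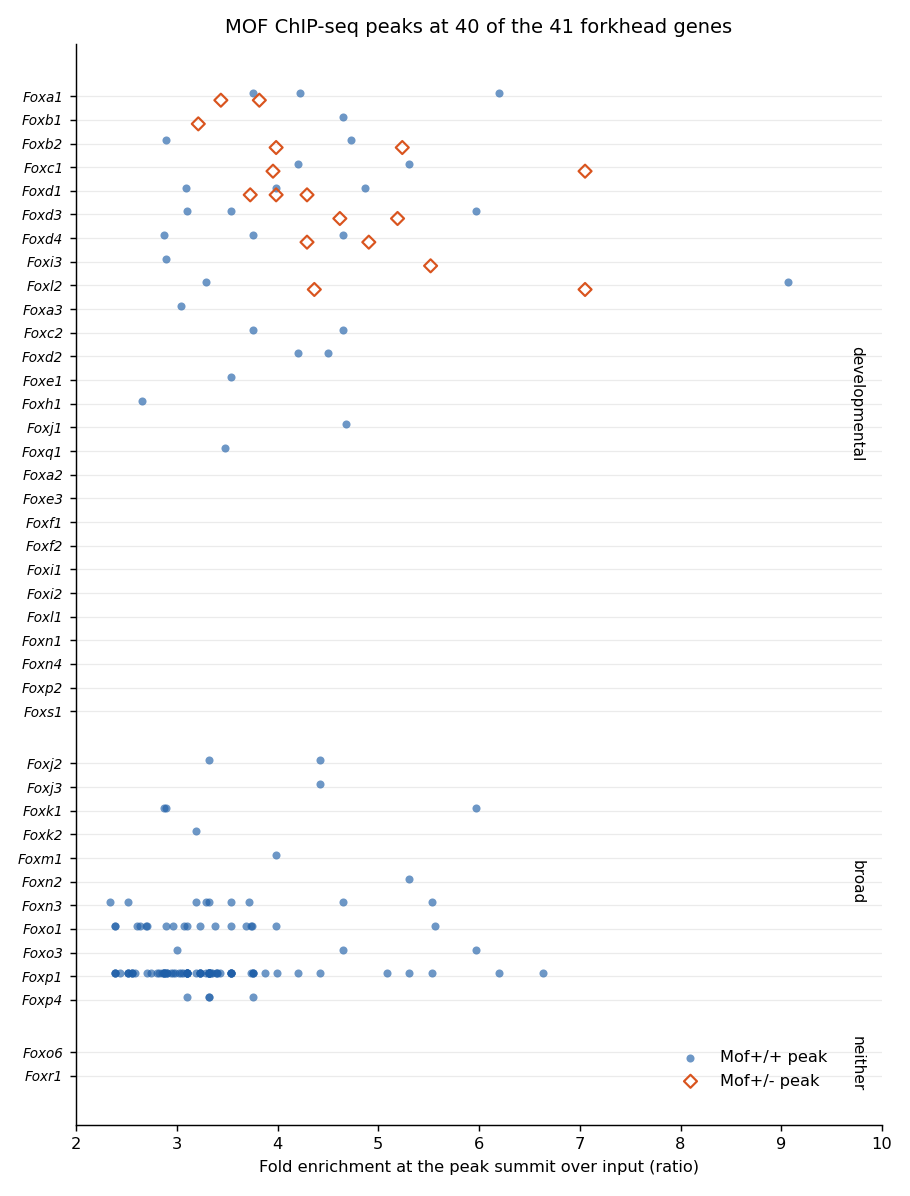
Fold enrichment over input (x axis, a ratio) of every MOF peak at 40 of the 41 forkhead genes (rows), with Mof+/+ peaks as filled blue circles and Mof+/- peaks as open orange diamonds. Diamonds stand only on rows of the developmental class, while all 11 broad members carry blue circles, 73 of them at Foxp1.

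Among the genes with a Mof+/+ peak, 9 of 28 forkhead members also had a Mof+/- peak (32.1%), against 4.06% of all genes with a Mof+/+ peak. The share was 9 of 17 (52.9%) in the developmental class and 0 of 11 in the broad class. Within 1 kb of a start site, 25 of 41 members (61.0%) had a Mof+/+ peak against 42.7% of all genes, and 6 of 41 (14.6%) had a Mof+/- peak against 1.37%. Other families of developmental regulators had 3 of 18 Sox genes, 4 of 12 Tbx genes and 3 of 9 Pax genes with a Mof+/- peak, and 9, 6 and 6 with a Mof+/+ peak. No order among these families was drawn from counts of this size.

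The bases from 75 bp before to 75 bp after the summit of 6 peaks, read from GRCm38 on the strand of the gene, are shown as examples of the sites in both classes. They were chosen after their values were seen. Capitals mark CpG sites, where mammalian DNA is methylated and which cluster at the promoters of broadly expressed genes. The Foxa1 window lies in an intron (chr12:57544927-57545077, minus strand) and the Foxc1 window upstream of the gene (chr13:31803517-31803667, plus strand), and both are centred on Mof+/- summits. The other windows are centred on Mof+/+ summits of broad members, in introns of Foxk1 (chr5:142441104-142441254, plus strand), Foxn2 (chr17:88441016-88441166, plus strand) and Foxp1 (chr6:99028420-99028570, minus strand) and upstream of Foxo3 (chr10:42276861-42277011, minus strand).
Foxa1: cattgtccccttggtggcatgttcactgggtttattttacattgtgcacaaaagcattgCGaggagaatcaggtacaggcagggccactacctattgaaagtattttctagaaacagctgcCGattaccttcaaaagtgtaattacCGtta
Foxc1: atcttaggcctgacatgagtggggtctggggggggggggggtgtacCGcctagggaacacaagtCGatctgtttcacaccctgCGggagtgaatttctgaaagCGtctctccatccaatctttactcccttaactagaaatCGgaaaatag
Foxk1: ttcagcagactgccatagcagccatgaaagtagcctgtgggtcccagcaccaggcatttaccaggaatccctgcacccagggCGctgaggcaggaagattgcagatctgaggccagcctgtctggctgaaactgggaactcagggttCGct
Foxn2: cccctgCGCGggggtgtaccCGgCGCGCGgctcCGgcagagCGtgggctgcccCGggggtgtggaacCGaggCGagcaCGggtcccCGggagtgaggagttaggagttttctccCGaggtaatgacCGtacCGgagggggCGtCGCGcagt
Foxo3: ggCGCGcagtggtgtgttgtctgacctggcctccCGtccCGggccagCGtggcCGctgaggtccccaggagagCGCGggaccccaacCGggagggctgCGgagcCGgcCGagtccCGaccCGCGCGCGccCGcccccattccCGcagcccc
Foxp1: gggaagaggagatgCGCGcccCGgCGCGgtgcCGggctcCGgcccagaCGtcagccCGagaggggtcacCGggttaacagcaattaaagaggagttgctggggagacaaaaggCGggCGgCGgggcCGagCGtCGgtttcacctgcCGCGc
The Foxa1 and Foxc1 windows held 3 and 5 CpG sites. The Foxk1, Foxn2, Foxo3 and Foxp1 windows held 2, 19, 19 and 18. Other Mof+/- windows of the same size held more, with 23 at the second Foxc1 summit, 21 at the Foxl2 start and 17 in the coding sequence of Foxd4, so the examples give no contrast of the classes. Over the whole width of the Mof+/+ peaks the median was 46.5 CpG sites per kb in the developmental class and 13.5 in the broad class, and within 3 kb of a start site it was 48.3 and 37.7. Without Foxp1 the broad median within 3 kb was 82.5, so the order of the classes there rested on that gene.

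Depth bears on every comparison of the lists. There were 19773 peaks in Mof+/+ and 731 in Mof+/-. The lowest input background, solved from the fold enrichment and the p-value of each peak, was 3.52 fragments for Mof+/+ and 2.26 for Mof+/-. The lowest −log10 p of any peak was 3.25 and 4.72. At that background 11 fragments were needed for a peak in either list, a fold enrichment of 2.65 in Mof+/+ and 3.68 in Mof+/-. A site called in Mof+/+ and not in Mof+/- may therefore lie under the Mof+/- limit, and a missing peak does not show that MOF was absent. Of 10 adipocyte markers 8 had a Mof+/+ peak (not Lep or Retn), against 46.4% of all genes, and so did 10 of 10 B cell, 9 of 10 T cell, 1 of 10 macrophage, 3 of 10 endothelial and 1 of 10 mesothelial markers. A Mof+/- peak was present at 0 of 10 adipocyte markers, at 2 of 10 B cell markers (Cd74 and Pax5), at 1 of 10 mesothelial markers (Wt1) and at 0 of 10 in each of the other lists, against 1.97% of all genes. The part of other cell types in the peaks at forkhead genes was not tested.

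The endoderm genes were 4 developmental members. Foxa1, a pioneer factor of liver, lung and prostate, had 3 Mof+/+ peaks. The peak over an intron (chr12:57542987-57546119) reached a fold enrichment of 6.19 from 27 summit fragments (95% Poisson interval of the fold enrichment 4.16 to 8.91). The peak beside its start site reached 3.76, and the peak across its 3′ end reached 4.23. The overlapping Mof+/- peaks were lower over the intron, at 3.44 (2.02 to 5.53, 15 fragments), and close to the Mof+/+ value at the start site, at 3.82. The Mof+/- peak that overlapped the 3′ peak lay outside the window of the gene and was higher, at 5.83. The sites of Foxa1 thus moved in different directions, within intervals that overlapped. Foxa3, a hepatic relative, had 1 Mof+/+ peak of 3.05 upstream of its start that it shared with Sympk. Foxe1, a thyroid gene, had 1 of 3.54 in its coding sequence, and its nearest Mof+/- peak was 4052 bp from the start site. Foxa2, which acts with Foxa1 in liver and pancreas, had 0 peaks, and the nearest Mof+/+ peak was 381150 bp from a start site.

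The mesoderm genes were 8 members, and 4 of them had a Mof+/+ peak. Foxc1, needed for eye, skull and vessel development, had a Mof+/+ peak over its coding sequence (chr13:31806325-31809992, fold enrichment 5.31, 23 fragments) and another upstream (chr13:31802322-31804205, fold enrichment 4.20, 18 fragments). The Mof+/- peaks at the same sites reached 3.96 and 7.05, the latter from 22 fragments (4.53 to 10.5). The upstream Mof+/- summit shared rank 19 of 712 autosomal Mof+/- peaks by fold enrichment. The coding site had the higher value in Mof+/+ and the upstream site in Mof+/-, but within each list the intervals of the sites overlapped (3.45 to 7.86 and 2.58 to 6.51 in Mof+/+, 2.32 to 6.36 and 4.53 to 10.5 in Mof+/-), so no order was drawn.

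Foxd1, a gene of kidney stroma and retina, had 3 peaks in each list. Its Mof+/+ peaks reached 3.98, 4.87 and 3.09, and its Mof+/- peaks reached 4.29, 3.99 and 3.73. The Mof+/+ peak of 4.87 lay in the coding sequence, with 139 CpG sites per kb, and overlapped no Mof+/- peak. The Mof+/- peak of 4.29 lay 1813 bp upstream of the start and overlapped no Mof+/+ peak. The remaining sites were called in both genotypes. Foxc2, a regulator of lymphatic vessels and of adipocyte metabolism, had Mof+/+ peaks of 4.65 and 3.76 and 0 in Mof+/-. Foxd2 had Mof+/+ peaks of 4.20 and 4.5, shared with the antisense transcript Foxd2os, and its nearest Mof+/- peak was 6306 bp from the start site.

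Foxf1, Foxf2, Foxl1 and Foxs1, genes of gut mesenchyme and vessel walls, had 0 peaks in either list. Foxf2 was the member just outside the 3 kb window, its nearest Mof+/+ peak being 3629 bp from the start site. The member just inside it was Foxq1, a gene of hair and stomach lining, whose single peak of 3.48 came within 2300 bp of the start site and lay over its coding sequence. Several of these genes stand side by side on the chromosome. The stretch from Foxf1 through Foxc2 to Foxl1 on chromosome 8 (52259 bp with its flanks) held 3 Mof+/+ peaks, 2 of them at Foxc2, and 0 Mof+/- peaks. The stretch from Foxq1 through Foxf2 to Foxc1 on chromosome 13 (262343 bp) held 6 Mof+/+ peaks, 3 of them at no member, and 2 Mof+/- peaks, both at Foxc1. A further Mof+/+ peak of 5.75 ended 2052 bp beyond the 3′ end of Foxd2 and belonged to no member.

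The neural genes were 7 members, and 4 of them were called in both lists. Foxd3, the neural crest and pluripotency gene, had 3 Mof+/+ peaks. The one downstream of the gene (chr4:99657593-99661157) reached 5.97 from 26 fragments (3.98 to 8.65), and the Mof+/- peak inside it reached 5.19 from 20 fragments (3.27 to 7.88). Their summits lay 13 bp apart, the closest of all pairs at forkhead genes. Upstream of Foxd3 the Mof+/+ peak reached 3.54 and the Mof+/- peak 4.62, both from 15 fragments over different backgrounds. A Mof+/+ peak of 3.10 nearer the start overlapped no Mof+/- peak.

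Foxd4, a neuroectoderm gene, had Mof+/+ peaks of 4.65, 3.76 and 2.88, of which the 3.76 one overlapped the Mof+/- peak of 4.91. Its other Mof+/- peak, of 4.29, lay in the coding sequence and overlapped no Mof+/+ peak. Foxb2, a gene of the developing diencephalon, had a downstream site with 4.73 in Mof+/+ and 5.24 in Mof+/-. It also had an upstream Mof+/+ peak of 2.90 and a Mof+/- peak of 3.99 in the coding sequence, which did not overlap. The downstream site lay over the long noncoding RNA gene AC128703.1. Foxb1, expressed in the mammillary region, had 1 peak in each list, of 4.65 in Mof+/+ and 3.21 in Mof+/-, in a noncoding exon and shared with B230323A14Rik. Foxn4 and Foxp2 had 0 peaks in either list. Foxp2 spans 540629 bp, and the median was also 0 Mof+/+ peaks over the 541 autosomal protein-coding genes of at least 300 kb.

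The last developmental group held 9 genes of single organs or cell types. Foxl2, the gene of ovarian granulosa cells and eyelid, held the highest fold enrichment of any forkhead peak. The Mof+/+ peak at its 3′ end (chr9:98956683-98958978, summit in an untranslated exon) reached 9.07 from 40 fragments (6.54 to 12.3) and ranked 23 of 19579 autosomal Mof+/+ peaks. The Mof+/- peak inside it reached 7.05 from 22 fragments (4.53 to 10.5), with the summits 72 bp apart. At the Foxl2 start the values were 3.29 in Mof+/+ and 4.37 in Mof+/-. The start peaks also counted for the antisense gene Foxl2os, while the 3′ peaks did not.

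Foxi3, an ectodermal placode gene, had 1 site upstream of its start. The Mof+/+ peak there reached 2.89 from 24 fragments over a background of 7.65, and the Mof+/- peak reached 5.52 from 17 fragments over 2.26. More fragments were counted in Mof+/+, and the higher ratio in Mof+/- came with a lower input background. This was the highest Mof+/- to Mof+/+ ratio among the pairs, 1.91, with intervals that overlapped (1.89 to 4.24 and 3.34 to 8.65). Foxj1, the master gene of motile cilia, had a Mof+/+ peak of 4.68 shared with Rnf157, and Foxh1, a NODAL cofactor, had one of 2.65 from 11 fragments shared with Ppp1r16a. Foxe3, Foxi1, Foxi2 and Foxn1, genes of lens, inner ear, ectoderm and thymus, had 0 peaks. Their nearest Mof+/+ peaks lay 16644, 133811, 241670 and 39833 bp from a start site.

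**Figure D2:**
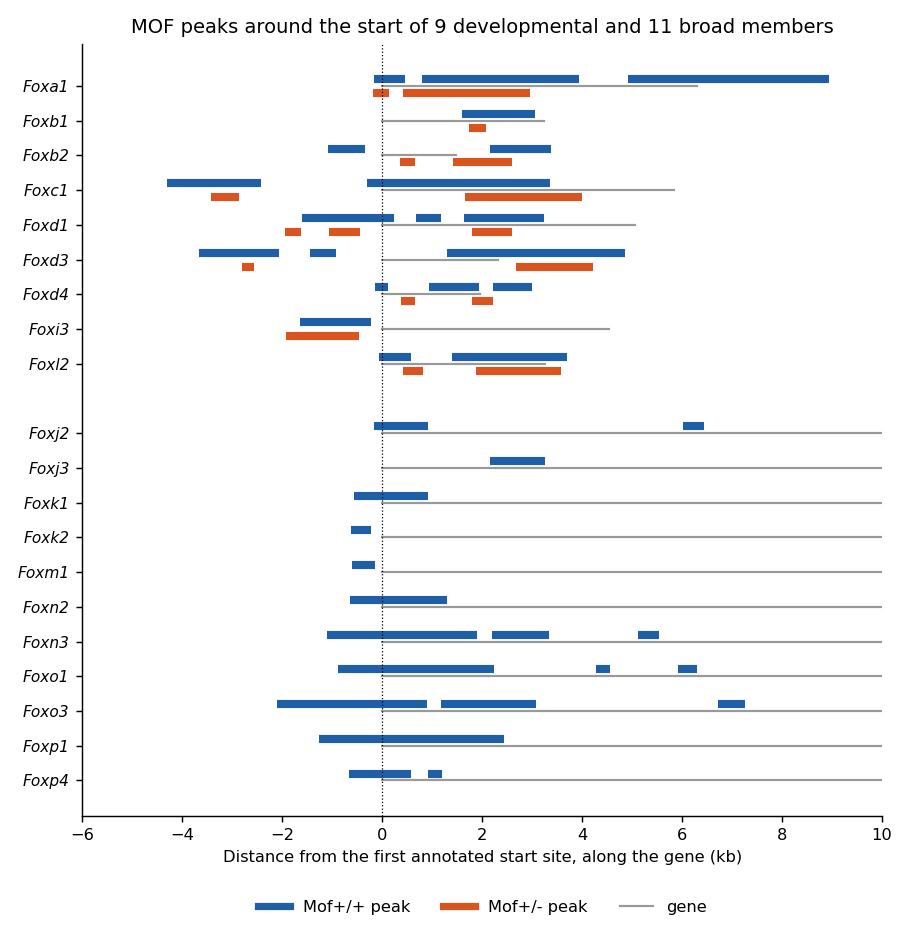
Position of MOF peaks in kb from the first annotated start site, along the direction of the gene, for the 9 developmental members with a Mof+/- peak (upper rows) and the 11 broad members (lower rows), with Mof+/+ peaks in blue above each gene line and Mof+/- peaks in orange below it. Many developmental peaks lie away from the start site, as at Foxc1 and Foxd3, while blue bars cover or adjoin the start in 10 of 11 broad members and the Foxj3 bar lies at a later start site.

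The paired values of the 9 genes did not move one way. Mof+/+ and Mof+/- peaks formed 16 overlapping pairs, in which the Mof+/- fold enrichment was higher in 10 and lower in 6. The median Mof+/- to Mof+/+ ratio was 1.06, and it ranged from 0.555 at the Foxa1 intron to 1.91 at Foxi3. In 0 of 16 pairs did the Poisson intervals stand apart. Over all 616 autosomal pairs the median ratio was 0.948 and the Mof+/- value was higher in 45.1%. Since both members of a pair had to be called, sites that fell under the Mof+/- limit are missing from these ratios. The Mof+/- peak was the narrower in 14 of 16 pairs, and 10 of 16 pairs had summits within 500 bp of each other, with a median distance of 408 bp.

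**Figure D3:**
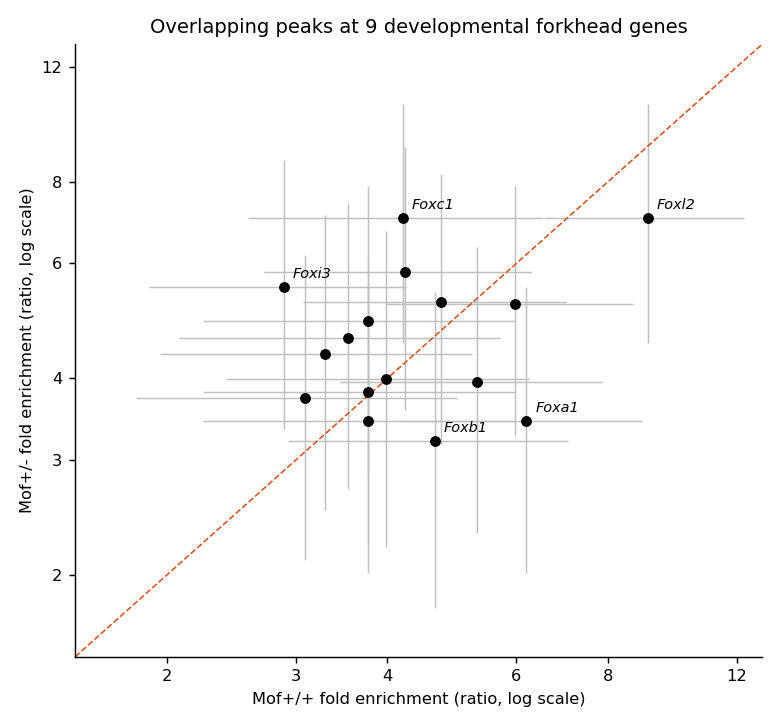
Fold enrichment in Mof+/- (y axis) against Mof+/+ (x axis), both ratios on log scales, for the 16 overlapping peak pairs at 9 developmental forkhead genes, with 95% Poisson intervals of the summit fragments as grey bars and equality as the dashed line. Points lie on both sides of the line, 10 above and 6 below, and the intervals of every pair overlap.

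The strongest Mof+/+ peak of each broad member ranged in fold enrichment from 3.19 at Foxk2 to 6.64 at Foxp1. Over all 116 broad peaks the median was 3.23, against 3.54 over the Mof+/+ peaks at all genes. Foxp1, a repressor in lymphocytes and many other tissues, reached 6.64 from 29 fragments (4.52 to 9.43) at an internal start site (chr6:99026972-99029182). Foxo3 and Foxk1 reached 5.97, each from 26 fragments (3.98 to 8.65). The Foxo3 peak lay over the start site, and the Foxk1 peak lay in an intron, 39679 bp from the nearest start. Foxo1 reached 5.56 from 27 fragments (3.73 to 8.00) over its start site (chr3:52267445-52270577). Foxn3, a checkpoint repressor, reached 5.53, and Foxn2, its close relative, 5.31. Foxj2 and Foxj3 reached 4.42 each, Foxm1, the cell cycle activator, 3.98, Foxp4 3.76 and Foxk2 3.19. The Foxm1 peak was shared with the divergent gene Rhno1. The strongest peak per gene had a median of 5.31 in the broad class and 4.65 in the developmental class, against 3.98 over all genes with a Mof+/+ peak. These maxima were taken over 1 to 73 peaks per broad gene and at most 3 per developmental gene, so they are not on an equal footing.

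Peak number varied widely among the broad members. Foxp1 had 73 Mof+/+ peaks, rank 2 of 20807 genes, behind only Gm20388, a gene model of 4435 kb with 103 peaks. Its 73 peaks covered 10.1% of the length of a gene 597 kb long, with a median fold enrichment of 3.19, and 13 of them lay within 3 kb of one of its 22 start sites. Foxo1, the main FOXO protein of insulin-responsive tissue, had 18 peaks over 84.9 kb, of which 1 lay within 3 kb of its start site and 17 beyond it. The peaks beyond had a median of 3.07 and reached at most 3.98, below the 5.56 at the start. Foxn3 had 9 peaks, Foxp4 had 4, Foxk1 and Foxo3 had 3 each, Foxj2 had 2, and Foxj3, Foxk2, Foxm1 and Foxn2 had 1 each.

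Retention was taken as the share of Mof+/+ peaks that shared at least 1 bp with a Mof+/- peak. At the forkhead genes it was 15 of 146 (10.3%), against 2.44% of all autosomal Mof+/+ peaks. At Sox, Tbx and Pax genes it was 4 of 17, 3 of 15 and 6 of 27. The share was 15 of 30 (50%, 33.2 to 66.8%) at developmental members and 0 of 116 at broad members, which allows up to 3.21%. Since 73 of the 116 belonged to Foxp1, that limit rests on the peaks of 1 gene counted as separate items. The 43 peaks of the other broad members, 0 of them retained, allow up to 8.20%. Of these 43 peaks 18 belonged to Foxo1 and 9 to Foxn3, so this limit too counts peaks of the same gene as separate items. The developmental share was 30.0% when the Mof+/+ summit had to lie inside the Mof+/- peak. It was 16.7% when 50% of both peaks had to be shared. The broad share, already 0%, could not rise under these stricter rules. Many of the broad peaks were weak, with a median fold enrichment of 3.23 against 3.87 in the developmental class, and 88 of 116 lay in gene bodies away from start sites. Within 3 kb of a start site the median fold enrichment was 3.76 over 29 developmental peaks and 3.75 over 28 broad peaks, and 14 of 29 and 0 of 28 were retained. Foxp1 gave 13 of these 28 broad peaks, and the other 15 had a median of 4.42 with 0 retained.

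**Figure D4:**
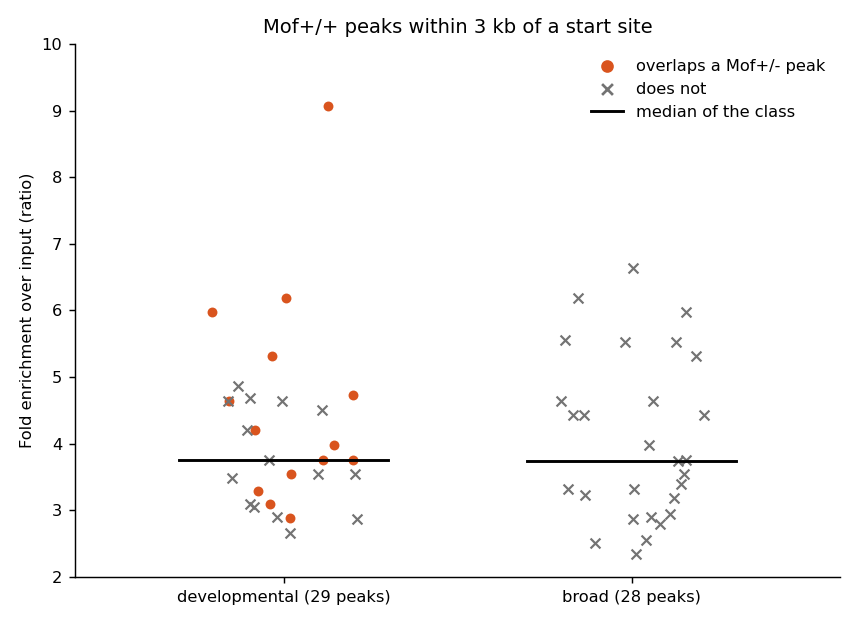
Fold enrichment over input (y axis, a ratio) of the Mof+/+ peaks within 3 kb of a start site, for 29 developmental and 28 broad peaks spread sideways for legibility, with the class median as a black line. Filled orange circles overlap a Mof+/- peak and grey crosses do not. The medians are 3.76 and 3.75, and the orange circles, 14 in all, stand only in the developmental class.

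The lower input background of the Mof+/- list was then applied to the Mof+/+ peaks, as a stand-in for depth, which the lists do not give. Summit fragments were scaled by 0.642, the ratio of the lowest backgrounds, and a peak was kept if it still reached the weakest Mof+/- p-value. Of the 146 peaks 36 did so. Of the 36, 9 were retained (25.0%), against 4.89% of the 7259 autosomal peaks that passed in the same way. At Sox, Tbx and Pax genes 3 of 5, 2 of 3 and 3 of 10 such peaks were retained. In the developmental class 9 of 15 such peaks were retained (60%, 35.7 to 80.2%), and in the broad class 0 of 21, which allows up to 15.5%. Without Foxp1 it was 0 of 12, which allows up to 24.2%. Several of these peaks came from the same genes, so the limits cover counting error only. Both sets had a median fold enrichment of 4.65. By gene, 9 of 11 broad members (all but Foxk2 and Foxp4) had at least 1 such peak and 0 of these 9 had a Mof+/- peak. Of the 11 developmental members with such a peak 8 had a Mof+/- peak, and Foxc2, Foxd2 and Foxj1 did not. Over all genes with such a peak the share was 5.62%. The ninth developmental gene with a Mof+/- peak, Foxi3, had a Mof+/+ peak too weak to pass. By peak, only 9 of the 15 retained developmental peaks passed. The rest were called in Mof+/- although scaling put them under the limit, so the filter is a rough guide.

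The classes also differed in features that the peak rule did not use. The sequence within 500 bp of the first start site held a median of 104 CpG sites in the broad class, 64.5 in the developmental class and 43 over all genes. By a GC content of at least 55% and an observed to expected CpG ratio of at least 0.6, 10 of 11 broad and 17 of 28 developmental members had a CpG-rich start, against 39.6% of all autosomal protein-coding genes. The exception in the broad class was Foxj3, with 9 CpG sites at its first annotated start, and its peak lay at a later start site. Of the 28 CpG-rich members 21 had a Mof+/+ peak (75.0%), against 72.9% of all CpG-rich genes. By class these were 10 of 10 broad and 11 of 17 developmental members (64.7%), one share above and the other below that background. A Mof+/- peak was present in 7 of the 28 (25.0%), against 3.06%, and by class in 0 of 10 broad and 7 of 17 developmental members (41.2%). Within the developmental class the median was 76 CpG sites in the 9 genes with a peak in both lists, 60 in the 8 with a Mof+/+ peak only and 62 in the 11 with none, with ranges that overlapped widely. Foxf1 and Foxf2, with 112 and 104 CpG sites, had 0 peaks, and Foxd4, with 29, had peaks in both lists.

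**Figure D5:**
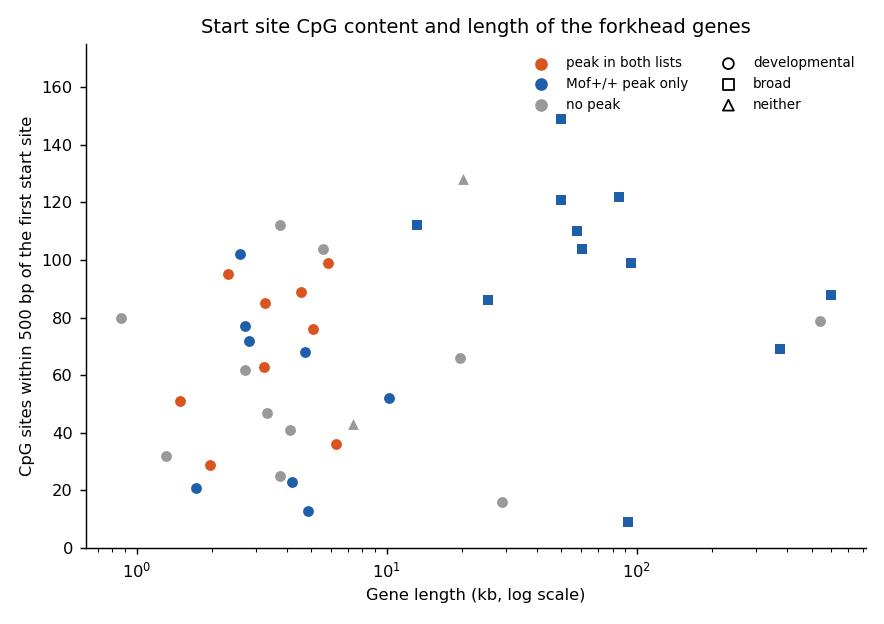
CpG sites within 500 bp of the first start site (y axis) against gene length in kb (x axis, log scale) for the 41 forkhead genes, with shape for the class and colour for the peaks found. Broad members are mostly long and rich in CpG, with medians of 60515 bp and 104 sites. Developmental members are mostly short, with medians of 3756 bp and 64.5 sites, though Foxp2 spans 540629 bp. Orange points, with a peak in both lists, range from 29 to 99 sites.

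Position and composition of the peaks differed as well. Of the Mof+/+ peaks within 3 kb of a start, 19 of 28 broad summits and 13 of 29 developmental summits lay within 1000 bp of the nearest annotated start site, with median distances of 422 and 1039 bp. Broad members had a median of 5 annotated start sites, and 22 at Foxp1, while 21 of 28 developmental members had 1, so a broad summit had more sites to be near. Without Foxp1, 12 of 15 broad summits lay within 1000 bp, with a median of 367 bp. The 17 Mof+/- peaks lay still farther out, 6 of them within 1000 bp, with a median of 1813 bp. By gene, 25 of 28 members with a Mof+/+ peak and 6 of 9 with a Mof+/- peak had one within 1 kb of a start. Over all genes these were 8894 of 9652 and 285 of 410, so the lists differed in the same direction there. Developmental Mof+/+ peaks that were retained had a median GC content of 50.9% and width of 1605 bp, and those that were not had 59.8% and 661 bp. Over all autosomal peaks the GC medians were 52.0% and 52.4%, so the gap in GC at forkhead genes was not seen across the list, while the gap in width was, with 1786 bp against 599 bp. A wide peak also has more bases in which to overlap.

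The enzyme that cut the chromatin, CviKI-1, recognises RGCY, and its sites moved with the genotype. The median was 20.6 RGCY sites per kb in the Mof+/+ peaks at developmental members, 17.9 at broad members and 12.7 in the Mof+/- peaks at developmental members. Over all genes it was 22.1 in Mof+/+ peaks and 14.0 in Mof+/- peaks. Within the Mof+/+ list the median was 20.7 in retained developmental peaks and 19.7 in those not retained. Over all autosomal Mof+/+ peaks these values were 20.8 and 21.3. The part of cutting density in the difference between the lists was not tested.

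The forkhead motif itself was looked for as the exact letters TGTTTAC or GTAAACA, which are the same site read on either strand. It was found within 500 bp of the first start of 3 of 41 members (Foxo1, Foxp1 and Foxp2, 7.32%), against 9.41% of all genes. Within 250 bp of the summits it was found at 3 of 17 Mof+/- peaks (17.6%, at Foxd1, Foxd3 and Foxi3), against 5.57% of the Mof+/- peaks at any gene. At Mof+/+ peaks it was found at 13 of 146 (8.90%), against 4.98%, with 9 of the 13 at Foxp1 and 3 at Foxo1. The match at the Mof+/- summit downstream of Foxd3 is shown as an example (chr4:99659841-99659991, plus strand of GRCm38). The bases run from 75 bp before to 75 bp after that summit, with capitals for the motif.
Foxd3: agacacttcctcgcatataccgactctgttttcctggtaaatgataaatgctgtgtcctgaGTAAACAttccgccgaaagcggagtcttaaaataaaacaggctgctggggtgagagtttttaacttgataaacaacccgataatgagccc
The centre of the motif lay 11 bp from the Foxd3 summit. A match is a description of the sequence and says nothing of whether a forkhead protein was bound there.

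The genes of the insulin to FOXO pathway, in which the broad members Foxo1 and Foxo3 act, had Mof+/+ peaks nearly throughout. A Mof+/+ peak was present at 25 of 27 listed genes (all but the liver genes G6pc and Igfbp1), against 46.4% of all genes. Among all CpG-rich genes that share was 72.9%, and the CpG content of the listed genes was not compared. A Mof+/- peak was present at 1 of 27, against 1.97% of all genes. All 9 upstream genes had a Mof+/+ peak, with a highest fold enrichment of 6.38 at the insulin receptor substrate gene Irs2 and 5.09 at the insulin receptor gene Insr. All 6 cofactor genes had one, reaching 8.12 at the 14-3-3 gene Ywhae and 7.08 at the acetyltransferase gene Ep300. Of the 12 FOXO target genes 10 had one, among them Bcl6 at 5.09 and the lipase gene Pnpla2 at 4.42. The single gene with a Mof+/- peak was the thioredoxin inhibitor Txnip, at 6.86 in Mof+/+ and 3.99 in Mof+/-. That is 1 of the 25 with a Mof+/+ peak, near the 4.06% of all such genes, so nothing about the pathway is read from its Mof+/- count.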

How the data were processed

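The authors mapped paired-end reads to GRCm38 with snakePipes and called peaks with MACS2 (2.1.1.20160309.3 in the submitters' processing notes) against input at a q-value threshold of 0.1. The paper states that peaks of each cell type were then merged with BEDtools at a distance of 1000 bp. The deposited lists still hold neighbouring peaks closer than that, as at Foxd1. Whether replicates were pooled in a list is not given in the sources used here. As deposited, fold enrichment is the ratio of summit fragments to local input background. MACS2 also gave the authors' deposited −log10 p-value, −log10 q-value and summit position for each peak. A score column (1 per list) was left aside. H3 libraries were not analysed here.

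Genotypes of the lists were read from their names. Coordinates count from 1, sequence came from GRCm38.p6 and genes from GENCODE M21. Summit fragments and background were solved from fold enrichment and −log10 p with the MACS2 pseudocount of 1, and the solver was tested on simulated data. Counts, shares with 95% Wilson intervals, medians and 95% Poisson intervals were computed with Python 3.11.15, numpy 2.4.6, pandas 2.3.3 and scipy 1.17.1. No test was run, and neither list gives library totals. Every member is in the counts, and the single values of 1 member and 1 sequence are not reported here. Members with a Mof+/- peak are given with each of their peaks, other members by their strongest peak, and members without a peak by name or distance. The members, their classes and the gene lists were chosen with earlier results of these data known. Alternatives covered the q-value, the window, the start sites, the overlap rule, the classes and the size of the CpG window.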

Additional observations from a re-analysis of the deposited data

Results flagged for a closer look

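Foxo4, a FOXO gene on chromosome X and therefore outside the 41 autosomal members, had 2 Mof+/+ peaks and 0 Mof+/- peaks. It was set apart because it carried a signal in data that the comparisons did not use. The stronger of the 2 peaks reached a fold enrichment of 3.54 from 15 summit fragments and lay over the start site (chrX:101254302-101255621). The other X-linked forkhead genes, Foxp3 and Foxr2, had 0 peaks in either list. No control list was at hand for these values.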

How the results depend on the processing

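No paired analysis was possible because the 2 lists, 1 for Mof+/+ and 1 for Mof+/-, hold no replicate numbers. For the same reason no replicate could be left out. Of 65 values recomputed under the alternatives, 59 stayed within 1.5 times the reported count, within its interval or within 1 SD, and 6 moved. With as many of the strongest Mof+/+ peaks as the Mof+/- list holds, members with a Mof+/+ peak fell from 28 to 6, developmental members from 17 to 3 and broad members from 11 to 3, since the shorter list holds fewer peaks. Retention at developmental members fell from 50% to 30.0% when the Mof+/+ summit had to lie inside the Mof+/- peak, and to 16.7% when 50% of both peaks had to be shared, as both rules ask for more than 1 bp. The median CpG density of the broad class rose from 104 to 143 per kb within 150 bp of the first start site. Retention at broad members was 0% under every alternative run for it. Leaving out Foxp1 was chosen after seeing the data. Stricter rules and that omission could not raise a share of 0%. A gap of up to 1000 bp was also far below the distances involved. The Mof+/- peak nearest to a start site of any broad member was 62451 bp away, at Foxk1. Broad members with a Mof+/- peak were 0 under every alternative run for that count. Those alternatives removed peaks, narrowed the window or regrouped members without a Mof+/- peak, so none could raise the count. The 59 values that stayed include these fixed values. Single peaks rest on a median of 16 and 14 summit fragments in the lists, which limits every comparison of strength.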
